A study of Mus musculus with 8 samples.

Results

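Chemokines and their receptors were followed in the ear skin of mice given MC903 or its ethanol vehicle. The set held every gene whose mouse symbol begins as a CC, CXC, XC or CX3C chemokine, as a receptor for one, or as an atypical chemokine receptor, with pseudogenes marked -ps left out. That gave 62 of the 41388 genes in the count tables: 38 chemokines and 24 receptors, of which 19 were conventional and 5 atypical. Chemokines with other symbols, such as Pf4 and Ppbp, lay outside the set. The 4 MC903 libraries came from wild-type adult C57Bl/6 mice whose ears received 1 nmol of topical calcipotriol (MC903, a vitamin D analog that produces an atopic dermatitis-like, itchy inflammation) each day for 12 days. The 4 vehicle libraries came from wild-type adult C57Bl/6 mice given ethanol, and each library was RNA from bulk whole ear skin. No transgene or deleted allele was named for either group, and age beyond adult was not given.

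Chemokines are small secreted proteins that bind G protein-coupled receptors on leukocytes and direct their movement along gradients. They are named by the spacing of their conserved N-terminal cysteines, and most inflammatory members are encoded in dense gene clusters. Atypical receptors bind chemokines without G protein signalling and take them up or transport them, which limits how much ligand remains in tissue. In inflamed skin, keratinocytes, fibroblasts, endothelium and resident macrophages are all known sources of chemokines, and the receptors sit mainly on the recruited leukocytes.

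Library totals ran from 12310466 to 15575518 counts in the MC903 group and from 14223908 to 16837221 counts in the vehicle group. Levels within a gene are given as CPM, counts scaled to library size with TMM factors, and a count of 3 equalled 0.178 to 0.244 CPM before that adjustment. The keratinocyte markers Krt14 and Krt10 were high in both groups, at 7064 ± 827 and 1946 ± 658 CPM in MC903 skin and 1935 ± 256 and 2351 ± 376 CPM in vehicle skin (mean ± SD, n = 4 each). Vehicle replicate 2 stood apart. Its summed level of 5 salivary gland genes was 56100 CPM, against 54.6 to 67.8 CPM in the MC903 libraries and 70.8 to 106.5 CPM in the other vehicle libraries. In whole tissue, fewer cells of a type and less RNA per cell cannot be told apart.

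Most tested chemokine and receptor genes rose in MC903 skin. Of the 62 genes, 53 had enough counts to test, and 37 of these rose, 4 fell and 12 did not pass the test (edgeR's quasi-likelihood test, Benjamini-Hochberg adjusted p under 0.05 over 16105 genes). Over all genes tested, 41.5% were called, 21.3% higher and 20.2% lower. The median log2 fold change of the 53 was 1.84, beside -0.03 over all genes tested. Each log2 fold given here is MC903 over vehicle, with its SE. A gene abundant in 1 group only can pass the count filter through that group, so these figures describe the 53 tested genes and not the whole set of 62. The same limit holds for the tested members of each marker list below. In 36 of the 53, every MC903 value lay above every vehicle value, a separation shown by 19.8% of all genes tested. In 2 of the 53 every MC903 value lay below every vehicle value, against 18.9% of all genes. By role, 26 of 32 tested chemokines rose and 1 fell (median 2.33), and 11 of 21 tested receptors rose and 3 fell (median 0.88). All 11 tested CXC chemokines of the set rose, as did 15 of 19 tested CC chemokines. Rises of at least 4-fold were found in 26 of the 53, and in 3.11% of all genes tested.

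**Figure D1:**
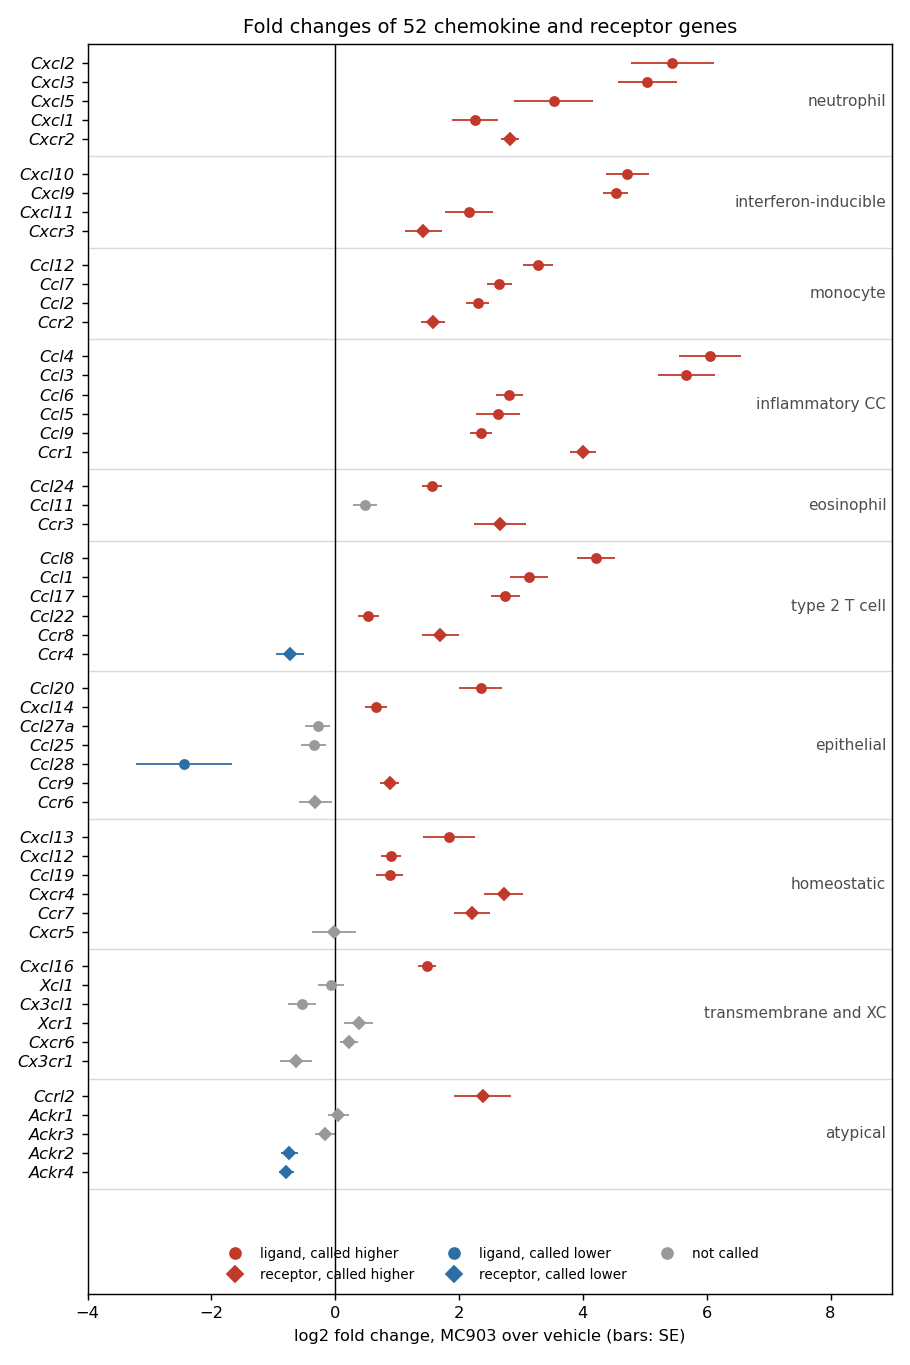
Log2 fold change (MC903 over vehicle, x axis, bars: SE, n = 4 libraries per group) of 52 genes tested, grouped by the cells or setting each axis is known for, with circles for chemokines and diamonds for receptors. Red marks the 36 shown that were called higher, blue the 4 called lower and grey the 12 not called; every gene shown of the neutrophil, interferon-inducible, monocyte and inflammatory CC axes is red.

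Per unit of transcript length, Ccl8 dominated the transcripts of the 38 chemokines of the set in both groups. Ccl8 is a CC chemokine that in mice acts on Ccr8, a receptor of type 2 T cells, and that skin macrophages are known to make. Its level was 6831, 5720, 4089 and 2894 RPKM in the MC903 libraries and 331, 249, 241 and 284 RPKM in the vehicle libraries (deposited values, scaled to gene length and library total). This was 68.3% to 77.0% of the summed RPKM of the 38 chemokines in each MC903 library and 48.4% to 51.0% in each vehicle library. The summed chemokine RPKM was 8868, 8074, 5881 and 4238 in the MC903 libraries and 685, 489, 483 and 573 in the vehicle libraries, with no overlap. Leaving Ccl8 out, it averaged 1882 ± 426 RPKM in MC903 skin and 281 ± 53.4 RPKM in vehicle skin (mean ± SD, n = 4 each). After Ccl8, the order by mean RPKM in MC903 skin was Ccl6 (375 ± 55.6), Cxcl2 (264 ± 169), Ccl7 (241 ± 50.6), Ccl4 (239 ± 123) and Ccl12 (132 ± 25.1). Each neighbouring pair in that order overlapped, with Cxcl2 spanning 62.6 to 450.0 RPKM and Ccl4 96.5 to 371 RPKM. Farther apart in the order, every MC903 value of Ccl6 lay above every value of Ccl7, and every value of Ccl7 above every value of Ccl12. In vehicle skin the order after Ccl8 was Ccl6 (56.4 ± 16.3), Ccl7 (40.7 ± 12.9), Ccl11 (29.3 ± 6.94), Ccl2 (18.7 ± 5.83) and Cxcl14 (17.8 ± 6.22), and again each neighbouring pair overlapped. RPKM was scaled to library totals without TMM factors, so the reads of salivary genes lower all other RPKM values of vehicle replicate 2. Pf4, a chemokine outside the set, averaged 241 CPM in MC903 skin and 151 CPM in vehicle skin and was not placed in these orders. In that unit, which is not scaled to length, Ccl8 averaged 2561 CPM in MC903 skin and 139 CPM in vehicle skin. The shares of Ccl8 above therefore hold only among the 38 chemokines of the set.

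**Figure D2:**
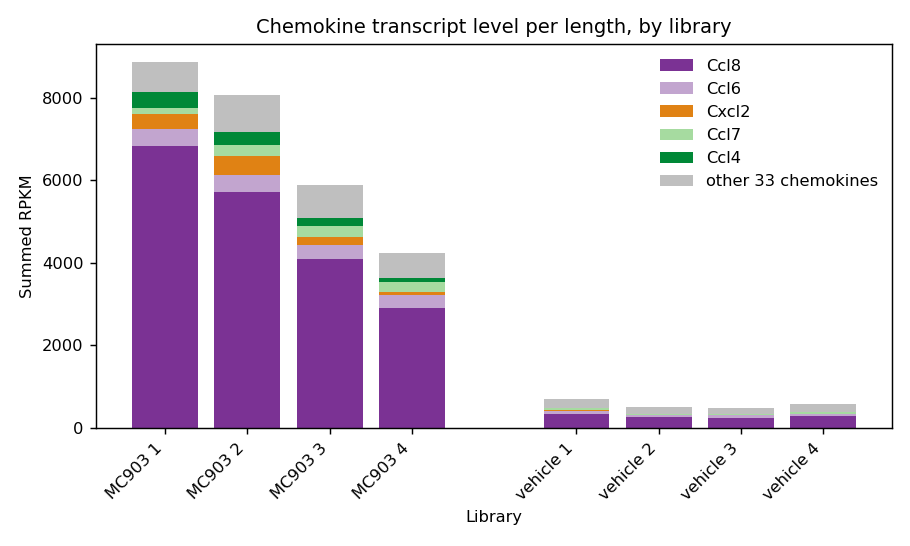
Summed RPKM (y axis, from 0) of the 38 chemokine genes in each library, MC903 left and vehicle right, stacked as Ccl8, Ccl6, Cxcl2, Ccl7, Ccl4 and the other 33 chemokines. Ccl8 makes up 68.3% to 77.0% of the MC903 columns and 48.4% to 51.0% of the vehicle columns, and the MC903 columns run from 4238 to 8868 RPKM against 483 to 685 RPKM for vehicle.

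The receptor transcripts summed to far less. All 24 receptors together averaged 161 ± 14.7 RPKM in MC903 skin and 99.2 ± 12.0 RPKM in vehicle skin (mean ± SD, n = 4 each). Ackr1, the atypical receptor of venular endothelium that transports chemokines, was the most abundant by mean in both groups, at 27.9 ± 4.33 RPKM in MC903 skin and 28.2 ± 5.77 RPKM in vehicle skin. It was followed in MC903 skin by Ccr1 (19.5 ± 4.34), Cxcr2 (17.5 ± 1.77), Ccr2 (17.5 ± 4.71) and Ackr3 (15.2 ± 3.02), and each neighbouring pair overlapped. In vehicle skin the next receptors were Ackr3 (17.8 ± 3.57), Cxcr6 (11.2 ± 1.45) and Ackr4 (10.7 ± 2.27), and only the last pair overlapped. The level of Ackr1 is uncertain, since 20.4% of its 50-base windows recur in transcripts of Cadm3.

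The chemokines of the neutrophil axis rose together with their receptor. Cxcl1, Cxcl2, Cxcl3 and Cxcl5 are neutrophil attractants that signal through Cxcr2. Cxcl2 stood at 381, 486, 209 and 67.1 CPM in the MC903 libraries and 3.06, 12.5, 2.85 and 8.17 CPM in the vehicle libraries, or 5.44 ± 0.67 as log2 fold (SE; adjusted p = 9.15e-05). Every MC903 library exceeded every vehicle library, although MC903 replicate 4 had far less Cxcl2 than the others. Cxcl3 stood at 16.3, 36.8, 16.1 and 9.39 CPM in MC903 skin, against 0.47, 0.767, 0.285 and 0.873 CPM in vehicle skin, or 5.04 ± 0.48 as log2 fold (SE; adjusted p = 1.51e-05). Cxcl1 stood at 11.8, 17.9, 22.8 and 9.72 CPM in MC903 skin and 5.64, 3.07, 1.6 and 2.68 CPM in vehicle skin, or 2.26 ± 0.37 as log2 fold (SE; adjusted p = 0.000608). Both separated the groups without overlap. Cxcl5, made mainly by epithelial cells, reached 23.4, 42.8, 49.7 and 37.3 CPM in MC903 skin, against 7.997, 4.22, 0.57 and 0.499 CPM in vehicle skin, or 3.53 ± 0.64 as log2 fold (SE; adjusted p = 0.00125). The vehicle values of Cxcl5 formed a high pair and a low pair, and its log2 fold change was 4.52 without vehicle replicate 1.

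The receptor Cxcr2 stood at 55.4, 59.96, 55.7 and 46.7 CPM in MC903 skin and 8.47, 6.98, 9.07 and 6.3 CPM in vehicle skin, or 2.82 ± 0.15 as log2 fold (SE; adjusted p = 3.75e-07). It was the least variable of the 37 genes called higher across the MC903 libraries (coefficient of variation 10.2%), with its highest value 1.28 times its lowest, where that ratio was 7.24 for Cxcl2. Cxcr1, its close relative, was too rare to test, with 16 counts over the MC903 libraries and 3 over the vehicle libraries. Scaled for library size the ratio was 5.95, and its 95% exact interval of 1.70 to 31.9 covers counting error only. Cxcl15, known as a lung chemokine, had 4 counts in MC903 skin and 1 in vehicle skin. Of the 10 neutrophil markers listed, 6 were testable and Csf3r, Fpr1, Fpr2, Trem1 and Retnlg rose. The summed level of the list was 30.1 to 63.0 CPM in MC903 libraries against 5.87 to 15.7 CPM in vehicle libraries. Csf3r and Mmp9, the most abundant of the list by mean over all 8 libraries, had log2 fold changes of 3.01 ± 0.32 and 0.13 ± 0.28 (SE; adjusted p = 3.5e-05 and 0.725). Ly6g had only 6 counts over the MC903 libraries and 0 over the vehicle libraries. The part of neutrophil numbers in these chemokine and receptor values was not tested.

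The start regions of the neighbouring genes Cxcl1, Cxcl2 and Cxcl3 are shown because they carry the same short element. The RefSeq windows on GRCm38.p6 run from 250 bases before to 50 bases after the start site, and capitals mark matches to the NF-κB consensus, a motif of 10 letters searched on both strands. They lie at chr5:90890995-90891294, chr5:90903649-90903948 and chr5:90785851-90786150, all on the plus strand.
Cxcl1: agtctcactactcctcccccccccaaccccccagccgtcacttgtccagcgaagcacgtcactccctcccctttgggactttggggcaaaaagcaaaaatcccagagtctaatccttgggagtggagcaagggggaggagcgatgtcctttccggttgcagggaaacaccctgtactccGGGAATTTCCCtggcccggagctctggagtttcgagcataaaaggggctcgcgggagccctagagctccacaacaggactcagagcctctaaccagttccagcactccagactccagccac
Cxcl2: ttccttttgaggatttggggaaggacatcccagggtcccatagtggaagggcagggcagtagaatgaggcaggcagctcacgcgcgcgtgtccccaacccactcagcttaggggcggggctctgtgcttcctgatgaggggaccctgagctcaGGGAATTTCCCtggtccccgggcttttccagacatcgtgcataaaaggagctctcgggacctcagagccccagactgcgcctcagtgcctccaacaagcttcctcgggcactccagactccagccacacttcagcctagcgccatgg
Cxcl3: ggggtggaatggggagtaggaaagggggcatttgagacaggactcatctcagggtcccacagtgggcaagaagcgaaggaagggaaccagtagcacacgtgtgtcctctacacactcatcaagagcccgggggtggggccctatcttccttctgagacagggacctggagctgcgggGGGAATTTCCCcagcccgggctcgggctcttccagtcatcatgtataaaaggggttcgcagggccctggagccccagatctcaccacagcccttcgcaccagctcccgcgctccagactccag
All 3 windows hold the identical run GGGAATTTCCC, which contains overlapping matches and begins 71 bases before the start site in Cxcl1, 97 bases before it in Cxcl2 and 73 bases before it in Cxcl3. Windows with at least 1 NF-κB match made up 8.46% of the 32851 promoter windows in the table. Of the 62 genes, 47 had a window, with 56 windows between them, of which 13 held a match. The 13 genes with a match were Ackr2, Ccl1, Ccl20, Ccl27a, Ccl9, Ccr1, Ccr3, Ccr6, Ccrl2, Cxcl1, Cxcl10, Cxcl2 and Cxcl3. Of these, Ackr2 was called lower and Ccl27a and Ccr6 were not called. The others were called higher, as were 69.8% of the 53 tested genes, and the part of the motif in any change was not tested. Cxcl5 of the same cluster, Ccl3 and Ccl4 were not among the genes with a match. The genes without a window are not listed here, so this absence does not show that a window of theirs was searched. A match describes the letters and not a bound site. Cxcl2 and Cxcl3 also resemble each other in their transcripts, with 5.84% of the 50-base windows of Cxcl2 and 4.29% of those of Cxcl3 found in another gene's annotated transcripts. The sources used here do not say how reads shared between genes were counted.

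The interferon-inducible chemokines Cxcl9, Cxcl10 and Cxcl11 rose, as did their common receptor Cxcr3, which marks activated T cells and natural killer cells. Cxcl9 stood at 102, 123, 77.97 and 112 CPM in MC903 skin and 4.59, 4.29, 5.59 and 3.37 CPM in vehicle skin, or 4.53 ± 0.20 as log2 fold (SE; adjusted p = 1.04e-07). Cxcl10 stood at 38.9, 100.2, 75.5 and 61.7 CPM in MC903 skin and 2.12, 4.45, 1.77 and 2.31 CPM in vehicle skin, or 4.72 ± 0.35 as log2 fold (SE; adjusted p = 3.05e-06). In both genes the lowest MC903 library was many times the highest vehicle library. Cxcl11 was rare, at 1.15, 3.33, 1.65 and 2.83 CPM in MC903 skin and 0.47, 0.614, 0.57 and 0.312 CPM in vehicle skin, or 2.16 ± 0.39 as log2 fold (SE; adjusted p = 0.0012). The C57BL/6 strain is known to carry a frameshift in Cxcl11, and the GENCODE M21 annotation types the gene as a polymorphic pseudogene. Its value is also uncertain because 40.4% of its 50-base windows recur in other genes' transcripts and 41.7% of its exon bases lie under Gm2673 on the opposite strand, a gene with 0 counts in all 8 libraries. Cxcl10 shares 8.75% of its exon bases with Art3 on the opposite strand, and no strand-marking step is part of the library protocol.

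Cxcr3 stood at 9.23, 5.66, 5.75 and 4.54 CPM in MC903 skin and 2.41, 3.6, 1.996 and 1.5 CPM in vehicle skin, or 1.42 ± 0.30 as log2 fold (SE; adjusted p = 0.00295). The groups did not overlap, and the rise of the receptor was smaller than that of Cxcl9 and Cxcl10, a difference between genes that was not tested. T cell markers rose in 8 of 10 cases, with summed levels of 110.0 to 145 CPM in MC903 libraries and 62.0 to 80.7 CPM in vehicle libraries. The T cell markers most abundant by mean over all 8 libraries, Cd3g and Cd3e, were not called, at 0.12 ± 0.17 and -0.30 ± 0.14 on the log2 scale (SE; adjusted p = 0.607 and 0.102). Natural killer markers summed to 4.43 to 12.4 CPM in MC903 libraries and 0.353 to 1.92 CPM in vehicle libraries. Gzma and Klrb1c, the 2 testable of 5, were higher by 4.70 ± 0.65 and 1.58 ± 0.43 (log2, SE). Gzma, with 232 counts over the MC903 libraries and 10 over the vehicle libraries, passed the count filter through the MC903 group. The part of T and natural killer cell numbers in Cxcr3 was not tested.

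The Cxcl10 window is shown because this gene had 1 of the larger rises of the set and because its window holds matches of different kinds. Capitals mark the interferon-response motif (GAAA, any 2 bases, GAAA) and NF-κB matches, and the window is chr5:92348840-92349139 of GRCm38.p6 on the minus strand.
Cxcl10: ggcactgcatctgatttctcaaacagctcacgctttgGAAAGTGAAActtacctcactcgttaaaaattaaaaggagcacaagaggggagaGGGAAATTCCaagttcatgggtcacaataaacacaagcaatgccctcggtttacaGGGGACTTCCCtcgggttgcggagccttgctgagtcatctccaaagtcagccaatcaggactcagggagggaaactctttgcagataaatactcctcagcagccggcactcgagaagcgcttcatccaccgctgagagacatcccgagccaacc
The run GAAAGTGAAA begins 213 bases before the start site, and the NF-κB matches GGGAAATTCC and GGGGACTTCCC begin 159 and 104 bases before it. The interferon-response motif occurs on either strand in 3.44% of all promoter windows, and within this set in Ccl19, Cxcl10 and Cxcl14. The Cxcl9 window held none of the motifs searched.

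Chemokines of monocyte recruitment rose. Ccl2, Ccl7 and the mouse chemokine Ccl12 act on Ccr2, the receptor that brings classical monocytes out of blood. Ccl2 stood at 93.7, 90.2, 121 and 99.5 CPM in MC903 skin and 27.3, 20.4, 18.5 and 15.8 CPM in vehicle skin, or 2.30 ± 0.18 as log2 fold (SE; adjusted p = 3.87e-06). Ccl7 stood at 142, 218, 228 and 199.6 CPM in MC903 skin and 41.6, 30.6, 23.9 and 29.6 CPM in vehicle skin, or 2.65 ± 0.20 as log2 fold (SE; adjusted p = 3.68e-06). Ccl12 stood at 78.9, 77.5, 81.6 and 52.0 CPM in MC903 skin and 8.53, 8.28, 4.11 and 8.98 CPM in vehicle skin, or 3.28 ± 0.24 as log2 fold (SE; adjusted p = 3.24e-06). None of the 3 chemokines overlapped between groups. Ccr2 itself stood at 72.3, 136, 133 and 114 CPM in MC903 skin and 38.2, 45.4, 31.1 and 37.3 CPM in vehicle skin, or 1.58 ± 0.20 as log2 fold (SE; adjusted p = 0.000104). All 11 macrophage and monocyte markers rose, summing to 2058 to 2973 CPM in MC903 libraries and 875 to 1022 CPM in vehicle libraries. Lyz2 and C1qb, the most abundant of them by the same mean, had log2 fold changes of 1.03 ± 0.18 and 2.08 ± 0.23, and the part of macrophage numbers in these values was not tested.

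The inflammatory CC chemokines included the largest fold changes among the 53 tested genes. Ccl4 stood at 257, 207, 119 and 64.7 CPM in MC903 skin and 1.59, 4.53, 1.6 and 2.31 CPM in vehicle skin, or 6.05 ± 0.50 as log2 fold (SE; adjusted p = 5.92e-06). Ccl3, its neighbour on chromosome 11, stood at 107, 123, 68.8 and 32.9 CPM in MC903 skin and 1.41, 2.84, 0.969 and 1.43 CPM in vehicle skin, or 5.67 ± 0.46 as log2 fold (SE; adjusted p = 5.2e-06). Both genes, which macrophages, T cells and mast cells make when activated, were lowest in replicate 4 in the MC903 group and highest in replicate 2 in the vehicle group, and the groups stayed apart. Ccl5, an attractant of T cells and eosinophils, stood at 20.7, 27.6, 17.9 and 8.91 CPM in MC903 skin and 2.29, 4.91, 2.85 and 2.25 CPM in vehicle skin, or 2.63 ± 0.35 as log2 fold (SE; adjusted p = 0.00015). Ccl6 and Ccl9 are rodent chemokines of myeloid cells and ligands of Ccr1. Ccl6 stood at 798, 777, 595 and 588 CPM in MC903 skin and 128, 108, 84.7 and 73.2 CPM in vehicle skin, or 2.81 ± 0.22 as log2 fold (SE; adjusted p = 3.94e-06). Ccl9 stood at 173, 264, 211 and 196 CPM in MC903 skin and 51.9, 44.3, 34.1 and 34.5 CPM in vehicle skin, or 2.36 ± 0.18 as log2 fold (SE; adjusted p = 4.12e-06).

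Ccr1, found on neutrophils, monocytes and macrophages, had the largest rise among the 21 tested receptors. It stood at 52.6, 74.6, 53.6 and 45.3 CPM in MC903 skin and 4.35, 3.83, 2.62 and 3.3 CPM in vehicle skin, or 4.00 ± 0.21 as log2 fold (SE; adjusted p = 2.82e-07). The groups did not overlap. Ccr1l1, a Ccr1 relative of mice, had 2 counts in MC903 skin and 1 in vehicle skin, so no difference was detectable at this depth. Mast cell markers summed to 532 to 898 CPM in MC903 libraries and 385 to 432 CPM in vehicle libraries, with 4 of 6 higher, Cma1 by 0.89 ± 0.22 and Tpsb2 by 0.74 ± 0.25 (log2, SE). Their part in Ccl3 and Ccl4 was not tested.

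**Figure D3:**
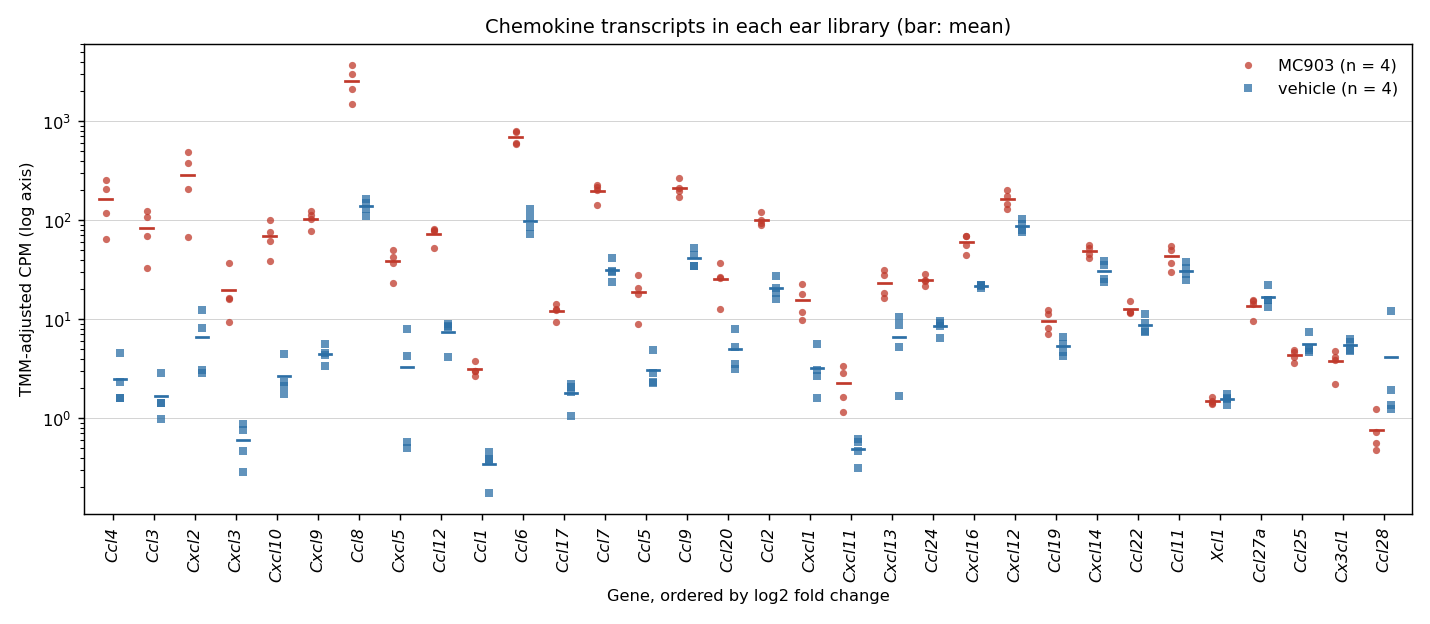
TMM-adjusted CPM (log axis) of the 32 tested chemokine genes in each library, MC903 in red at the left of each pair and vehicle in blue at the right, with bars for the mean of 4 libraries. From Ccl4 to Ccl22 the 26 genes called higher do not overlap between groups, and vehicle replicate 2 stands far above the other vehicle libraries in Ccl28.

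The type 2 T cell axis was split between its receptors. Ccl17 and Ccl22 attract Ccr4-bearing T helper 2, regulatory and skin-homing T cells, and Ccl1 and mouse Ccl8 attract Ccr8-bearing T cells. Ccl17 stood at 12.6, 14.2, 12.3 and 9.39 CPM in MC903 skin and 1.06, 1.84, 2.22 and 2.06 CPM in vehicle skin, or 2.75 ± 0.24 as log2 fold (SE; adjusted p = 7.52e-06). Ccl22 stood at 11.8, 11.9, 15.3 and 11.6 CPM in MC903 skin and 7.35, 11.2, 9.07 and 7.61 CPM in vehicle skin, or 0.53 ± 0.17 as log2 fold (SE; adjusted p = 0.0288). The groups did not overlap for either gene, but the Ccl22 gap was narrow. Its adjusted p rose above the threshold when 1 library was left out, to 0.0966 for MC903 replicate 3 and to 0.0814, 0.0548 and 0.0754 for vehicle replicates 1, 3 and 4. Scaling by library size only and by upper quartiles gave 0.0827 and 0.0520. Ccl8 in CPM stood at 3661, 2992, 2088 and 1502 in MC903 skin and 151, 164, 111 and 129 in vehicle skin, or 4.21 ± 0.31 as log2 fold (SE; adjusted p = 2.69e-06). Ccl8 thus had no overlap between groups, and by RPKM it was the most abundant chemokine of the set in each library. Ccl1 was rare and stood at 3.77, 2.99, 2.65 and 2.997 CPM in MC903 skin and 0.176, 0.384, 0.456 and 0.374 CPM in vehicle skin, or 3.13 ± 0.30 as log2 fold (SE; adjusted p = 1.45e-05). Ccr8 stood at 2.9, 3.41, 2.58 and 3.56 CPM in MC903 skin and 0.588, 0.614, 1.43 and 1.12 CPM in vehicle skin, or 1.70 ± 0.30 as log2 fold (SE; adjusted p = 0.00102). Both again separated the groups. Ccr4 fell, at 4.24, 5.32, 7.87 and 4.62 CPM in MC903 skin and 7.88, 10.8, 10.8 and 7.23 CPM in vehicle skin, or -0.73 ± 0.23 as log2 fold (SE; adjusted p = 0.0237). Its groups overlapped, since MC903 replicate 3 lay above vehicle replicate 4. Ccr4 did not pass when MC903 replicate 1, 2 or 4 was left out (adjusted p = 0.0561, 0.0566 and 0.0539), nor when vehicle replicate 2 or 3 was (0.0602 and 0.0676). Its log2 fold change lay between -0.95 and -0.61 in all 8 fits with 1 library removed.

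The Ccl17 window is shown because, among the windows of this set, it was the only 1 that held TTC and GAA set 4 bases apart, the spacing that STAT6 is known to favour. It lies at chr8:94810203-94810502 of GRCm38.p6 on the plus strand, and capitals mark this motif and TTCNNNGAA, where N is any base, each searched on both strands.
Ccl17: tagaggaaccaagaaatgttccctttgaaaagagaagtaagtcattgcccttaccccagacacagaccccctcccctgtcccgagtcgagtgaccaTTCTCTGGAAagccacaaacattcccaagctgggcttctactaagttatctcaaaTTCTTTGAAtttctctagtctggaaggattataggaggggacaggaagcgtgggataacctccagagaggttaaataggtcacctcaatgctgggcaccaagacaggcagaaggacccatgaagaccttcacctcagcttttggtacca
The run TTCTCTGGAA begins 154 bases before the start site and TTCTTTGAA begins 99 bases before it. The wider spacing occurs in 6.95% of all promoter windows, and TTCNNNGAA in 8.3% and, within this set, in Ccl17, Ccr1l1, Ccr6 and Cxcl14. The Ccl22 window held none of the motifs searched.

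The eosinophil axis rose in part. Ccl24 stood at 24.4, 28.5, 24.6 and 21.9 CPM in MC903 skin and 9.23, 9.59, 6.44 and 8.6 CPM in vehicle skin, or 1.56 ± 0.16 as log2 fold (SE; adjusted p = 2.11e-05). Ccl11, the other eotaxin, stood at 30.2, 54.6, 37.3 and 49.9 CPM in MC903 skin and 28.5, 32.7, 24.7 and 37.4 CPM in vehicle skin, or 0.48 ± 0.20 as log2 fold (SE; adjusted p = 0.0704), which did not pass the test, and the groups overlapped. Ccl26 had 0 counts in all 8 libraries. Ccr3, the eotaxin receptor of eosinophils, was rare, at 1.48, 3.24, 1.59 and 2.27 CPM in MC903 skin and 0.176, 0.384, 0.57 and 0.187 CPM in vehicle skin, or 2.66 ± 0.42 as log2 fold (SE; adjusted p = 0.000467). The groups did not overlap, and the vehicle libraries held 3, 5, 10 and 3 counts of it. Eosinophil markers summed to 23.7 to 32.1 CPM in MC903 libraries and 4.88 to 8.59 CPM in vehicle libraries, with the 2 testable of 7 higher. Of these, Prg2 had 58 counts over the MC903 libraries and 3 over the vehicle libraries. It passed the count filter through the MC903 group, so its call adds little. Ear2 and Prg2, the most abundant by that mean, had log2 fold changes of 1.98 ± 0.20 and 4.28 ± 0.54. Ear2 made up most of the sum, averaging 24.5 CPM in MC903 skin and 6.24 CPM in vehicle skin. Epx had only 2 counts over the MC903 libraries and 0 over the vehicle libraries. The part of eosinophil numbers in Ccr3 was not tested.

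Chemokines known from epithelia did not share a direction. Ccl20, made by keratinocytes and read by Ccr6 on type 17 lymphocytes, stood at 26.8, 36.7, 26.1 and 12.6 CPM in MC903 skin and 7.997, 5.29, 3.14 and 3.55 CPM in vehicle skin, or 2.35 ± 0.35 as log2 fold (SE; adjusted p = 0.00033). Its receptor Ccr6 stood at 3.7, 3.16, 4.76 and 3.89 CPM in MC903 skin and 2.71, 6.98, 5.08 and 4.74 CPM in vehicle skin, or -0.32 ± 0.27 as log2 fold (SE; adjusted p = 0.363), which did not pass the test. The receptor values overlapped, while the chemokine values did not. Cxcl14, a constitutive chemokine of normal epidermis, stood at 41.9, 45.8, 56.4 and 51.9 CPM in MC903 skin and 38.98, 25.5, 23.8 and 35.5 CPM in vehicle skin, or 0.66 ± 0.18 as log2 fold (SE; adjusted p = 0.0108), and it missed the threshold when scaled by library size only (adjusted p = 0.0632). Ccl27a, a keratinocyte attractant of skin-homing T cells, stood at 15.6, 14.4, 15.2 and 9.64 CPM in MC903 skin and 15.6, 15.7, 13.2 and 22.2 CPM in vehicle skin, or -0.28 ± 0.20 as log2 fold (SE; adjusted p = 0.269), which did not pass the test. Of its 50-base windows 45% recur in other genes, so its level is uncertain. Ccr10, the receptor for Ccl27a and Ccl28, was too rare to test, with 13 counts in MC903 skin and 15 in vehicle skin (ratio 0.967, 95% exact interval 0.424 to 2.18). Ccl27b had 0 counts, and 98.1% of its windows recur in other genes.

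Ccl28, a mucosal and exocrine gland chemokine, was the only tested chemokine called lower. It stood at 0.471, 1.25, 0.728 and 0.567 CPM in MC903 skin and 1.24, 12.1, 1.37 and 1.93 CPM in vehicle skin, or -2.44 ± 0.77 as log2 fold (SE; adjusted p = 0.0259). Vehicle replicate 2, the library with high salivary gland transcripts, held most of the vehicle signal, and the highest MC903 value lay just above the lowest vehicle value. Without that library the log2 fold change was -1.02 ± 0.37 with an adjusted p of 0.0506. Ccl28 also missed the threshold with limma-voom (adjusted p = 0.0914) and when MC903 replicate 1, 3 or 4 was left out (0.0664, 0.0608 and 0.0533). Cxcl17, another mucosal chemokine, had 11, 4, 7 and 5 counts in the MC903 libraries and 6, 97, 12 and 2 in the vehicle libraries, and was not tested. Leaving out vehicle replicate 2 left 27 counts over 4 MC903 libraries and 20 over 3 vehicle libraries. Ccl25, the ligand of the gut-homing receptor Ccr9, stood at 4.18, 4.66, 3.64 and 4.86 CPM in MC903 skin and 4.7, 7.44, 5.13 and 4.92 CPM in vehicle skin, or -0.35 ± 0.20 as log2 fold (SE; adjusted p = 0.172), which did not pass the test. Its highest value was again in vehicle replicate 2. Ccr9 stood at 15.4, 15.5, 14.2 and 11.7 CPM in MC903 skin and 8.82, 6.98, 7.93 and 7.04 CPM in vehicle skin, or 0.88 ± 0.15 as log2 fold (SE; adjusted p = 0.000738), with 5.71% of its exon bases shared with Gm17200 on the same strand and 20.1% of its 50-base windows found in other genes.

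Of the 6 tested genes of lymphoid homing and tissue retention, 5 rose. Cxcl12, a fibroblast and endothelial chemokine, stood at 130.4, 199, 147 and 177 CPM in MC903 skin and 75.2, 92.1, 79.4 and 102 CPM in vehicle skin, or 0.90 ± 0.16 as log2 fold (SE; adjusted p = 0.00109). Its receptor Cxcr4, present on most leukocytes, stood at 18.9, 23.9, 10.8 and 9.39 CPM in MC903 skin and 2.06, 2.22, 2.22 and 2.99 CPM in vehicle skin, or 2.72 ± 0.31 as log2 fold (SE; adjusted p = 4.63e-05). Neither overlapped between groups. Ccr7, which guides dendritic cells and T cells into lymphatics, stood at 8.22, 5.91, 6.42 and 5.34 CPM in MC903 skin and 1.24, 2.38, 1.25 and 0.81 CPM in vehicle skin, or 2.21 ± 0.29 as log2 fold (SE; adjusted p = 0.000154). Its ligand Ccl19 stood at 12.3, 8.15, 11.2 and 7.05 CPM in MC903 skin and 4.29, 6.6, 4.62 and 5.67 CPM in vehicle skin, or 0.88 ± 0.22 as log2 fold (SE; adjusted p = 0.00767), and 52% of its 50-base windows recur in other genes, pseudogene copies included. The other Ccr7 ligand, Ccl21, cannot be judged here: Ccl21a and Ccl21b had 0 counts in all 8 libraries, and 71.6% and 100% of their 50-base windows recur in other genes' transcripts. Among 6 dendritic cell markers Itgax, Batf3 and Cd209a rose, while Flt3 (-0.36 log2), Zbtb46 (0.08) and Clec9a (0.54) were not called, with sums of 102 to 144 CPM in MC903 libraries and 61.9 to 86.7 CPM in vehicle libraries, and their part in Ccr7 was not tested. Cxcl13, the attractant of B cells, stood at 31.1, 16.2, 18.2 and 28.2 CPM in MC903 skin and 10.6, 8.74, 5.25 and 1.68 CPM in vehicle skin, or 1.84 ± 0.42 as log2 fold (SE; adjusted p = 0.00505). Its receptor Cxcr5 stood at 1.21, 2.83, 1.39 and 1.46 CPM in MC903 skin and 1.88, 0.92, 1.43 and 2.62 CPM in vehicle skin, or -0.02 ± 0.36 as log2 fold (SE; adjusted p = 0.973), which did not pass the test. B cell markers summed to 3.48 to 8.49 CPM in MC903 libraries and 1.60 to 2.35 CPM in vehicle libraries. Among them Cd79b rose (1.78 ± 0.32 log2, SE; adjusted p = 0.00118), and Pax5 was at 0 in all 8. The part of B cells in Cxcl13 and Cxcr5 was not tested.

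Among the membrane-bound chemokines and the XC pair, Cxcl16 alone passed the test. It stood at 69.8, 69.2, 56.4 and 44.95 CPM in MC903 skin and 21.9, 21.8, 20.7 and 22.01 CPM in vehicle skin, or 1.48 ± 0.15 as log2 fold (SE; adjusted p = 2.34e-05), and 18.3% of its exon bases lie under Zmynd15 on the opposite strand. Its receptor Cxcr6, found on resident T cells, stood at 19.3, 28.4, 26.3 and 23.1 CPM in MC903 skin and 17.6, 23.4, 21.7 and 20.3 CPM in vehicle skin, or 0.22 ± 0.15 as log2 fold (SE; adjusted p = 0.249). Cx3cl1, fractalkine, stood at 2.22, 3.91, 4.1 and 4.78 CPM in MC903 skin and 5.94, 6.29, 4.73 and 4.86 CPM in vehicle skin, or -0.54 ± 0.23 as log2 fold (SE; adjusted p = 0.0846). The values of Cxcr6 and of Cx3cl1 overlapped between groups. The fractalkine receptor Cx3cr1 stood at 1.62, 1.83, 2.31 and 2.43 CPM in MC903 skin and 2.29, 4.45, 3.36 and 2.62 CPM in vehicle skin, or -0.63 ± 0.26 as log2 fold (SE; adjusted p = 0.0721). Xcl1, a product of T and natural killer cells, stood at 1.48, 1.41, 1.65 and 1.38 CPM in MC903 skin and 1.59, 1.76, 1.37 and 1.56 CPM in vehicle skin, or -0.07 ± 0.21 as log2 fold (SE; adjusted p = 0.834). Neither Cx3cr1 nor Xcl1 was called, and both overlapped between groups. The Xcl1 receptor Xcr1, which marks cross-presenting dendritic cells, stood at 1.82, 2.91, 2.31 and 2.997 CPM in MC903 skin and 1.82, 2.22, 1.94 and 1.68 CPM in vehicle skin, or 0.38 ± 0.23 as log2 fold (SE; adjusted p = 0.2). A p above the threshold does not show that these levels were alike.

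Of the 5 atypical receptors 1 rose and 2 fell, and of the 16 tested conventional receptors 10 rose and 1 fell, beside 21.3% higher and 20.2% lower over all genes tested. The difference between the classes was not tested. Ackr2, a scavenger of inflammatory CC chemokines known from lymphatic endothelium and keratinocytes, stood at 7.004, 7.4, 7.41 and 8.59 CPM in MC903 skin and 13.6, 12.96, 13.5 and 10.8 CPM in vehicle skin, or -0.74 ± 0.14 as log2 fold (SE; adjusted p = 0.00165). Ackr4, the scavenger of Ccl19, Ccl21 and Ccl25, stood at 29.6, 33.4, 33.9 and 28.2 CPM in MC903 skin and 49.3, 51.4, 60.1 and 56.3 CPM in vehicle skin, or -0.79 ± 0.12 as log2 fold (SE; adjusted p = 0.000346). In both, every MC903 value lay below every vehicle value, and both calls and directions held in every alternative tried. Ackr4 shares 9.06% of its exon bases with Acad11 on the opposite strand. Ackr1 stood at 40.5, 28.5, 28.6 and 34.5 CPM in MC903 skin and 37.9, 36.2, 27.6 and 26.2 CPM in vehicle skin, or 0.05 ± 0.17 as log2 fold (SE; adjusted p = 0.835), with a direction that changed between alternatives. Ackr3, the scavenger of Cxcl12, stood at 39.2, 60.1, 49.1 and 59.5 CPM in MC903 skin and 55.2, 61.5, 67.6 and 47.3 CPM in vehicle skin, or -0.16 ± 0.16 as log2 fold (SE; adjusted p = 0.459), which did not pass the test. Ccrl2, which binds chemerin and presents it to leukocytes, stood at 36.8, 27.4, 18.3 and 5.99 CPM in MC903 skin and 3.41, 6.6, 4.05 and 3.12 CPM in vehicle skin, or 2.38 ± 0.46 as log2 fold (SE; adjusted p = 0.00174). It was the only gene called higher whose groups overlapped, because MC903 replicate 4 lay below vehicle replicate 2. Of 4 lymphatic endothelial markers, 3 were testable and Prox1 fell (-0.94 ± 0.23 log2, SE), while Lyve1 (-0.03 ± 0.17) and Flt4 (-0.51 ± 0.20) were not called. The list summed to 52.0 to 67.3 CPM in MC903 libraries and 53.6 to 80.9 CPM in vehicle libraries. Pdpn had 0 counts in all 8, and with the annotation release and counting rules not given, its level cannot be judged here. Blood endothelial markers summed to 140 to 205 CPM in MC903 libraries and 117 to 162 CPM in vehicle libraries, with Pecam1 alone of 6 higher (0.45 ± 0.17) and Vwf at 0.08 ± 0.18 (log2, SE). Keratinocyte markers summed to 11840 to 13070 CPM in MC903 libraries and 5206 to 6403 CPM in vehicle libraries, with 2 of 4 higher. Fibroblast markers summed to 5036 to 6946 CPM in MC903 libraries and 7225 to 10590 CPM in vehicle libraries, with Dcn lower (-0.74 ± 0.19 log2, SE) and Col1a1 not called (-0.56 ± 0.33). Cartilage markers summed to 67.5 to 95.6 CPM in MC903 libraries and 191 to 230.0 CPM in vehicle libraries, with all 3 tested lower, Acan by -1.37 ± 0.14 and Comp by -1.31 ± 0.19 (log2, SE). Skeletal muscle markers summed to 1287 to 4517 CPM in MC903 libraries and 2644 to 8039 CPM in vehicle libraries, with 2 of 4 lower, Acta1 among them (-1.08 ± 0.40 log2, SE) and Tnnt3 not called (-1.02 ± 0.40). The part of these cells in the atypical receptor values was not tested.

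**Figure D4:**
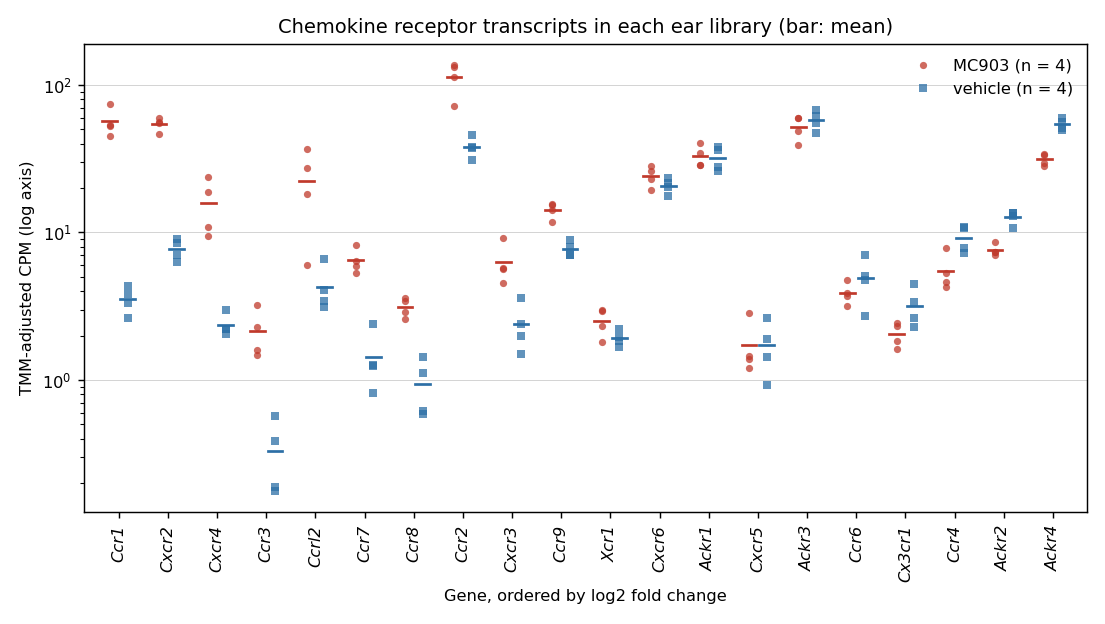
TMM-adjusted CPM (log axis) of 20 tested receptor genes in each library, MC903 in red at the left of each pair and vehicle in blue at the right, with bars for the mean of 4 libraries. The groups do not overlap for the 9 conventional receptors shown that were called higher, Ackr2 and Ackr4 lie wholly below their vehicle values in MC903 skin, and Ccrl2 spans 5.99 to 36.8 CPM in MC903 skin.

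Variation between the MC903 libraries was widest in a few genes. Across the MC903 libraries the coefficient of variation was 64.8% for Cxcl2, 60.6% for Cxcl3, 59.4% for Ccrl2, 53.2% for Ccl4 and 48.7% for Ccl3, against a median of 24.2% over the 37 genes called higher. All 5 were lowest in MC903 replicate 4. That library held the lowest MC903 value in 22 of the 37 genes and the highest in 1, and its neutrophil and macrophage marker sums, at 30.1 and 2058 CPM, were also the lowest of the group. The same library had the highest MC903 sums of skeletal muscle (4517 CPM), fibroblast (6946), blood endothelial (205) and keratinocyte (13070) markers, and the part of these differences was not tested. MC903 replicate 2 held the highest value in 19 of the 37. With MC903 replicate 4 left out, 37 genes were called higher, as with all libraries.

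In 5 genomic clusters of chemokines most tested genes rose, as did 81.2% of all tested chemokines and 21.3% of all genes tested. Whether neighbours rose together more often than other chemokines was not tested. Of the 62 genes, those within 250 kb of a neighbour formed clusters, and coordinates here are mm10. Clusters beyond these 5 are not described in full. On chromosome 9, for example, the clustered receptors Ccr1 and Ccr2 rose, while Cxcr6 and Xcr1 (0.22 and 0.38) were not called. The cluster on chromosome 11 from 82035571 to 82305690 holds Ccl2, Ccl7, Ccl11, Ccl12, Ccl8 and Ccl1, of which 5 of 6 rose, with log2 fold changes from 0.48 in Ccl11 to 4.21 in Ccl8. A second cluster on chromosome 11, from 83525778 to 83664683, holds Ccl5, Ccl9, Ccl6, Ccl3 and Ccl4, which all rose, by 2.36 to 6.05. On chromosome 5 all 4 tested genes from 90759299 to 90905909 rose by 2.26 to 5.44, and all 3 from 92321331 to 92365485 rose by 2.16 to 4.72. The chromosome 8 cluster, from 94745590 to 94812035, was mixed within 66.4 kb: Ccl22 and Ccl17 rose by 0.53 and 2.75, while Cx3cl1 between them stood at -0.54 and was not called.

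**Figure D5:**
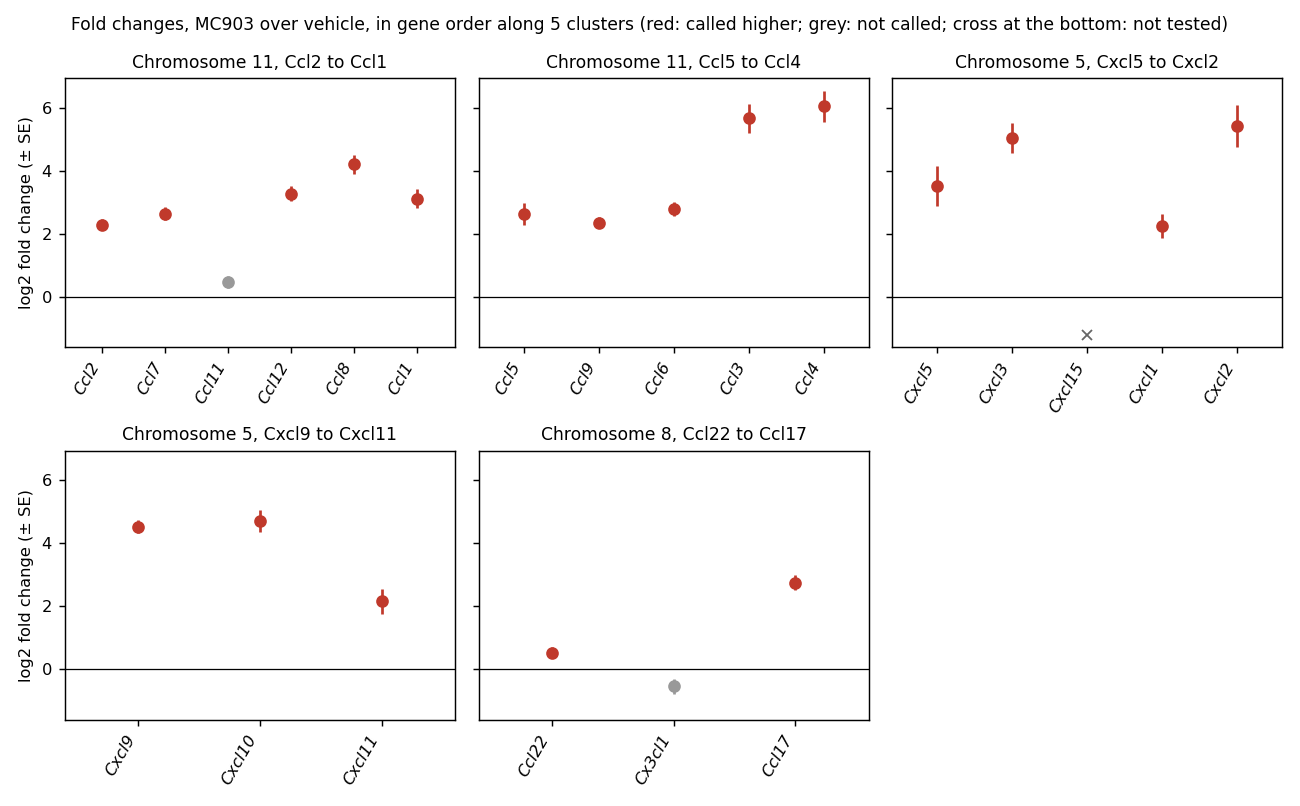
Log2 fold change (MC903 over vehicle, bars: SE, n = 4 libraries per group) of the genes in 5 clusters, plotted in gene order along each chromosome and not to genomic distance. Red points were called higher, grey points were not called and the cross marks a gene not tested; Ccl11 and Cx3cl1 are the grey points among red neighbours.

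Genes of chemokine signalling and transport outside the set were also examined. The list of 26 mixed genes that act downstream of chemokine receptors with others. The others were the chemokines Pf4 and Ppbp, the ligands Rarres2 and Mif, the receptor Cmklr1, the protease Dpp4 and the syndecans Sdc1 and Sdc4. Of the 26, 17 were higher and 1 lower, with a median log2 fold change of 0.70. Pf4, Ppbp, Rarres2, Mif and Sdc1 were among those higher, so the count and median do not describe downstream genes alone. Over all genes tested the median was -0.03, with 21.3% higher and 20.2% lower. The smallest p values belonged to Rgs1 and Rgs2, which end G protein signalling, and Vav1, a leukocyte exchange factor. Rgs1 averaged 20.1 ± 4.64 CPM in MC903 skin and 3.39 ± 0.527 CPM in vehicle skin (SD, n = 4 each), or 2.56 ± 0.20 as log2 fold (SE; adjusted p = 3.81e-06). Rgs2 and Vav1 had log2 fold changes of 1.19 ± 0.12 and 1.74 ± 0.17. The 1 lower gene was Arrb1, a beta-arrestin, at 38.8 ± 3.52 CPM in MC903 skin and 51.8 ± 3.81 CPM in vehicle skin (SD, n = 4 each), or -0.41 ± 0.11 as log2 fold (SE; adjusted p = 0.0137). Among 14 adhesion genes of leukocyte entry 12 rose and none fell, with a median of 1.16, against that same background. Basophil markers, known to mark cells that carry several of these receptors, summed to 152 to 183 CPM in MC903 libraries and 15.9 to 22.3 CPM in vehicle libraries. All 5 rose, Mcpt8 by 6.95 ± 0.22 and Gata2 by 1.22 ± 0.19 (log2, SE), and their part in the receptor values was not tested.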

How the data were processed

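Per the labels' protocols, RNA from whole ear skin of MC903 and vehicle mice (4 libraries each) was depleted of ribosomal RNA and primed with random hexamers. It was then amplified over 12 cycles and read as single 50-base reads. Reads were handled with STAR 2.0.4b, Subread and featureCounts 1.4.5 on mm10, per the submitters' processing notes. The sources used here do not give the annotation release, the multi-mapping rule or the strand setting. The authors deposited whole-number counts per Ensembl gene, with CPM and RPKM, which equalled those counts scaled by library total and gene length. Names came from a symbol table for 40254 of 41388 identifiers and from GENCODE M21 positions for 151, and no gene of the set was named by position.

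The deposited counts were filtered with filterByExpr, scaled by TMM and compared in edgeR 4.0.16 (quasi-likelihood test, Benjamini-Hochberg adjustment over all genes tested, R 4.3.3). The SE is the absolute log2 fold change over the square root of F. Nothing in the labels says that replicates were processed on separate days. The p-values measure the spread between these 4 and 4 libraries, in which mouse, dissection and library preparation cannot be told apart. Genes below the filter were given as summed counts with exact intervals of 95% on the ratio, which cover only counting error, since amplified reads lack molecular identifiers and are not independent. Shared sequence was counted as 50-base windows found in another gene's annotated transcripts. Promoter windows came from RefSeq (GRCm38.p6) for 47 of the 62 genes. DESeq2 1.42.0, limma-voom 3.58.1, other scalings and filters, thinning, a replicate block and leaving out each library were the alternatives. Counts cover every gene of the set and lists, and a few genes are not reported by name here. Those of the named axes and any other called gene are given in full, the signalling genes by the 3 smallest p in each direction, and the marker lists by their 2 most abundant genes by mean over all 8 libraries, with some further members named after their values were seen. The set and the lists were chosen with earlier results of these data known.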

Additional observations from a re-analysis of the deposited data

Results flagged for a closer look

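Of the 106 groups of 4 libraries examined, one per tested gene and treatment, 6 held a library farther from the others than the 95% critical value of Dixon's gap ratio (0.829), and chance flags about 1 in 20 groups. In MC903 skin, Ccl12 was 52.0 CPM in replicate 4, against 77.5 to 81.6 CPM in the other MC903 libraries. Ccl22 was 15.3 CPM in MC903 replicate 3 and 11.6 to 11.9 CPM in the others. Cxcr5 was 2.83 CPM in MC903 replicate 2 and 1.21 to 1.46 CPM in the others. In vehicle skin, Ccl12 was 4.11 CPM in replicate 3 and 8.28 to 8.98 CPM in the others. The remaining flags both fell in vehicle replicate 2, where Ccl28 was 12.1 CPM against 1.24 to 1.93 CPM in the other vehicle libraries, and Ccl25 was 7.44 CPM against 4.70 to 5.13 CPM. That library's summed salivary gland level was 56100 CPM, and the part of salivary tissue in Ccl28 and Ccl25 was not tested.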

How the results depend on the processing

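Of the 41 genes called, 37 kept their call and direction in every alternative that gave a value, and the other 4 (Ccl22, Ccr4, Ccl28 and Cxcl14) kept their direction. The count of genes called higher was 36 to 38 with 1 library left out, and that of genes called lower 2 to 5, with 2 when vehicle replicate 2 or MC903 replicate 1 was left out. Chemokines called lower numbered 2 with upper quartile factors, 0 with DESeq2, 0 with limma-voom and 0 to 1 with 1 library left out. DESeq2 gave no p for Ccl28. At an unadjusted p under 0.05, 1 chemokine was lower with DESeq2 (Cx3cl1) and 2 with limma-voom (Ccl28 and Cx3cl1). Calls were gained by Ccl11 with DESeq2 (adjusted p = 0.0491), the replicate block (0.0409) and without vehicle replicate 4 (0.0484) or MC903 replicate 1 (0.0153), by Cx3cl1 with upper quartile factors (0.0486) and without MC903 replicate 4 (0.0475), and by Cx3cr1 with upper quartile factors (0.0450) and without vehicle replicate 1 (0.0456). Signs reversed only among uncalled genes near 0. Ackr1 was -0.02 with library sizes alone, -0.02 with upper quartile factors and -0.06 to 0.14 with 1 library left out. Cxcr5 was 0.00 with DESeq2 and -0.34 to 0.25 with 1 library left out, and Xcl1 was 0.03 after thinning to the shallowest library. The cause was not tested. With the replicate number as a block, 38 genes of the set were higher and 4 lower. Deviations of same-numbered libraries correlated at 0.0568, -0.139, -0.118 and -0.204, and those of differently numbered libraries at -0.138 to 0.291. The check gave no sign of pairing by number, but it cannot tell whether same-numbered libraries shared a cage, day or preparation. Of the 9 untested genes, all but Cxcl17 had few or no counts, and Cxcl17 had 97 of its 117 vehicle counts in replicate 2. In vehicle skin Ccr3, Ccl1 and Cxcl11 had no more than 10 counts in any library, which limits their precision.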
